A study of Mus musculus with 69 samples.

Results

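The proapoptotic Bcl2 family was followed in mouse cells with and without p53 through the measured RNA of 10 genes: the effectors Bax and Bak1 and the BH3-only genes Bbc3, Pmaip1, Bid, Bcl2l11, Bmf, Hrk, Bik and Bad. The members were taken by gene symbol from a table of 55367 symbols, whatever their values, and all 10 had a row in it and passed the filter on low counts in every fit. Bulk RNA sequencing covered 69 libraries, 3 replicates of each of 23 conditions, made from mouse embryonic stem (mES) cells of the E14tg2A line and from mosaic gastruloids, aggregates of such cells that develop towards a gastrulating embryo. The study followed competition between cells with and without p53 and sorted the cells of each fluorescent clone before sequencing.

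All cells came from 3 clones. WT–mCherry cells carried an H2B–mCherry transgene driven by the EF1α promoter, and WT–emiRFP cells an H2B–emiRFP670 transgene driven by the CAG promoter, both placed by piggyBac transposition in cells with intact Trp53. p53KO–emiRFP cells were 1 subclone of WT–emiRFP with the same frameshift insertion in both copies of Trp53 exon 4, selected with Nutlin-3a, so clone and genotype cannot be told apart. At 0 h the 3 clones were mES cells kept in serum with LIF. WT + WT gastruloids began with 150 WT–mCherry and 150 WT–emiRFP cells, and WT + p53KO gastruloids with 150 WT–mCherry and 25 p53KO–emiRFP cells. The Wnt agonist CHIR99021 was given from 48 to 72 h, so cells sorted at 48 h came from the start of this treatment and those of later times from its end or after it, and mCherry and emiRFP cells of many pooled gastruloids were sorted at 48, 72, 96, 120 and 144 h. The neighbour's genotype and the number of emiRFP cells seeded therefore cannot be told apart. From 48 h on p53KO–emiRFP and WT–emiRFP cells came from gastruloids of different make-up, so that there genotype, gastruloid and number seeded cannot be told apart either.

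Bcl2 family proteins decide whether the outer mitochondrial membrane stays intact. Bax and Bak1 are the effectors, which form pores in that membrane and let cytochrome c out, after which Apaf1 and caspases dismantle the cell. BH3-only proteins act upstream: they bind prosurvival members such as Mcl1, Bcl2l1 and Bcl2 through a short helix called the BH3 motif, and some of them also activate Bax and Bak1 directly. Bbc3 (Puma), Pmaip1 (Noxa) and Bax are textbook targets of p53 in cells under stress, and Bcl2l11 (Bim) and Bmf are raised in many cells by loss of growth signals or attachment.

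The BH3 motif is what the members share in sequence, and its most constant residues are a leucine and, 5 residues later, an aspartate. The segments of 27 coding bases below begin at that leucine codon in 9 members, read 5′ to 3′ on the coding strand from the GRCm38 genome with the GENCODE M21 annotation. Capitals mark the leucine and aspartate codons. No segment is printed for Pmaip1.
Bax: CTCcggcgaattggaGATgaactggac
Bak1: CTTgctctcatcggaGATgatattaac
Bid: CTCgcccaaataggcGATgagatggac
Bcl2l11: CTGcggcggatcggaGACgagttcaac
Bbc3: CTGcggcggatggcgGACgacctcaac
Bmf: CTTcagtgtattgcaGACcagttccat
Bik: CTGgcctgcatcggcGATgagatggac
Hrk: CTGcaggcgctgggcGACgagctgcac
Bad: CTCcgaaggatgagcGATgagtttgag

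Each segment lay within 1 coding exon. On the + strand these were chr7:16313773-16313799 for Bbc3, chr2:128147150-128147176 for Bcl2l11, chr5:118169891-118169917 for Hrk, chr15:83543084-83543110 for Bik and chr19:6950792-6950818 for Bad. On the − strand they were chr7:45465997-45466023 for Bax, chr17:27022531-27022557 for Bak1, chr6:120897289-120897315 for Bid and chr2:118545100-118545126 for Bmf. The leucine codon was CTT in Bak1 and Bmf and CTC or CTG in the others. The aspartate codon was GAC in Bbc3, Bcl2l11, Bmf and Hrk and GAT in Bax, Bak1, Bid, Bik and Bad. Gene bodies of Bid and Bad overlap the genes Bcl2l13 and Gpr137 on the opposite strand, and the strand setting of the authors' counts is not given in the sources used here, so reads of either gene of these pairs could have been counted for the other.

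Total counts ranged from 26722541 to 72981570 per library with a median of 53098728. Trp53 itself averaged 25497 ± 1924 normalized counts (SD, n = 3) in WT–emiRFP and 2484 ± 136 in p53KO–emiRFP mES cells, and its log2 fold change lay between −3.58 and −3.14 over the 6 times. The p53 targets Cdkn1a, which halts the cell cycle, and Mdm2, which degrades p53, were also lower at every time. The mES cell libraries had the naive pluripotency markers Klf4, Esrrb and Zfp42 at a summed 104590.0 to 114469 normalized counts in WT–mCherry cells. None of the 16 markers followed (of naive pluripotency, pluripotency, primitive streak, paraxial mesoderm, neural, haematoendothelial and endoderm cells) was at 0 in all 3 libraries of any condition.

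The members differed widely in level. Normalized counts are counts divided by size factors (medians of ratios over all 69 libraries), and per kb of exons they can be compared between genes. Bax was the most abundant member in every WT population, with 3958 ± 713 normalized counts per kb in WT–emiRFP mES cells and 2351 ± 169.9 at 144 h. In p53KO–emiRFP cells Bax ranked first at 0 h only: Pmaip1 led at 48, 72 and 96 h (2706 ± 22.3 per kb at 72 h), Bak1 at 120 h and Bmf at 144 h (1159 ± 96 per kb). At 120 h Bak1 (992 ± 47.3 per kb) and Bax (966 ± 3.55 per kb) lay within their spread. Hrk and Bik had the lowest levels per kb in all 23 conditions, 24.5 ± 1.53 and 124 ± 13.8 in WT–emiRFP cells at 144 h.

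**Figure D1:**
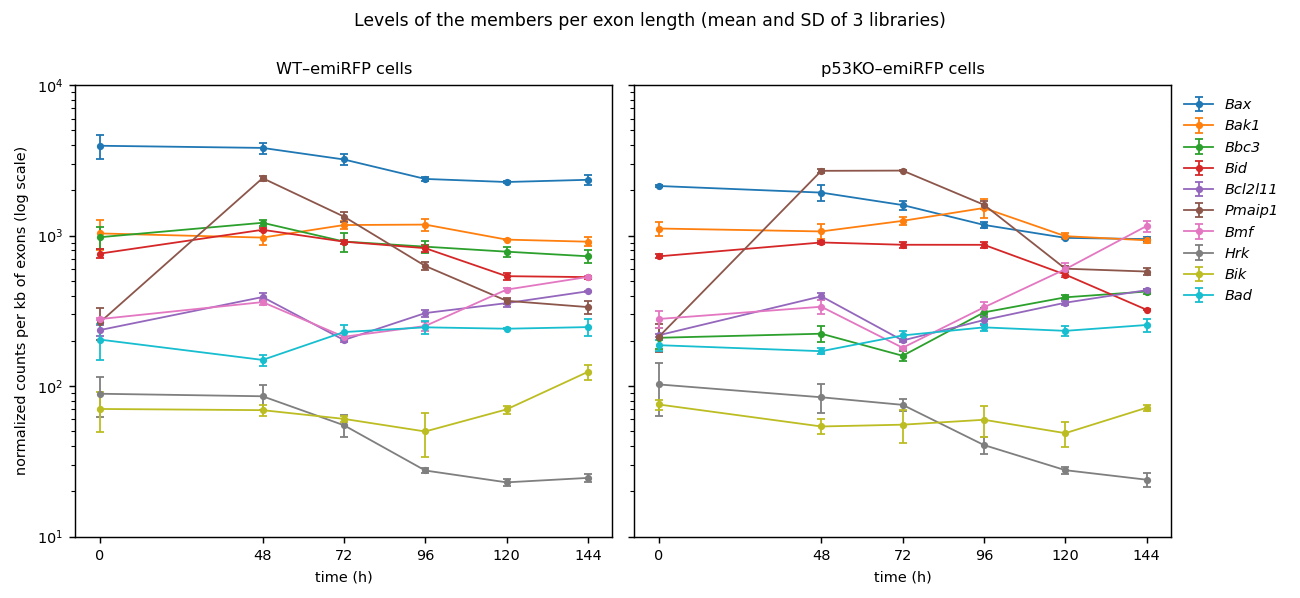
Levels of the 10 members as normalized counts per kb of exons (log axis) against time in hours, in WT–emiRFP (left) and p53KO–emiRFP cells (right), as mean and SD of 3 libraries. Bax is the top line throughout on the left, while on the right Pmaip1 stands above it at 48, 72 and 96 h and Bmf at 144 h.

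The first comparison set p53KO–emiRFP against WT–emiRFP cells of the same founder clone, as mES cells at 0 h and from separate gastruloids afterwards. In it p53KO–emiRFP cells had less Bax and Bbc3 RNA at all 6 times, and more Pmaip1 from 48 h and more Bmf from 96 h onwards. The difference of Bax lay between −0.89 (0 h) and −1.31 (144 h) on the log2 scale, whereas that of Bbc3 went from −2.52 at 72 h to −0.78 at 144 h. Bcl2l11 and Bad passed the test at no time in this fit. All differences are log2 fold changes with standard errors from edgeR's quasi-likelihood test, called at a Benjamini-Hochberg adjusted p under 0.05 over all genes tested.

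In these fits 2 of the 10 members were called at 0 h, both lower, where 6.13% of all genes tested were called. At 48 h 4 members were called (1 higher, 3 lower) beside 22.0% of all genes, and at 72 h 5 (2 higher, 3 lower) beside 29.1%. At 96 h 6 members were called (4 higher, 2 lower) beside 23.3% of all genes. At 120 h the count was 5 (2 higher, 3 lower) beside 51.0%, and at 144 h 6 (2 higher, 4 lower) beside 65.3%, so at these last times the share of members called was close to that of all genes. In bulk RNA, fewer cells of a type and less RNA per cell cannot be told apart.

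Bax, the effector that moves from the cytosol to the mitochondria, had 7523, 5749 and 5441 (0 h), 6589.7, 5923 and 5592 (48 h) and 5424, 5133 and 4611 (72 h) in the 3 WT–emiRFP libraries, as normalized counts. In p53KO–emiRFP cells the same times gave 3435, 3354 and 3322 (0 h), 3154, 3344 and 2639 (48 h) and 2718, 2465 and 2367 (72 h). Every p53KO–emiRFP library was below every WT–emiRFP library at these times. Later the WT–emiRFP libraries had 3628, 3888 and 3746 (96 h), 3506, 3586 and 3652 (120 h) and 3710.0, 3969.6 and 3434 (144 h), against 1903, 1925 and 1744 (96 h), 1529, 1518 and 1523 (120 h) and 1526, 1446 and 1511 (144 h) in p53KO–emiRFP cells. Again the groups did not overlap. The log2 fold change was −0.89 ± 0.12 at 0 h (edgeR adjusted p = 0.000822), −1.01 ± 0.08 at 72 h (adjusted p = 1.58e-07) and −1.31 ± 0.08 at 144 h (adjusted p = 1.2e-08). Whether the difference varied over the 6 times was asked by an F test, which called 5 members (Bbc3, Pmaip1, Bid, Bmf and Bik) beside 62.5% of all genes. For Bax it gave adjusted p = 0.0567 without and 0.00173 with the replicate number as a block, where 68.3% of all genes were called.

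Bak1, the effector that sits in the mitochondrial membrane already in healthy cells, was higher in p53KO–emiRFP cells at 96 h only, at 0.37 ± 0.10 (edgeR adjusted p = 0.0169). Its means there were 3675 ± 523 and 2850.2 ± 258 normalized counts (SD, n = 3 each). With the replicate block it was also called at 48 h (0.14, adjusted p = 0.00318), beside 41.1% of all genes in that fit. Without replicate 1 of all groups the 96 h call was lost (adjusted p = 0.197).

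Bbc3 encodes the BH3-only protein Puma, which binds all prosurvival members. Its WT–emiRFP libraries had 2472, 1799 and 1951 (0 h), 2691, 2605 and 2462 (48 h) and 2228, 1929 and 1668 (72 h) normalized counts, and the p53KO–emiRFP libraries 463, 368 and 503 (0 h), 463, 535 and 423 (48 h) and 339, 365 and 309 (72 h). The highest p53KO–emiRFP library was thus far below the lowest WT–emiRFP library at each of these times. From 96 h the groups came closer without overlapping: WT–emiRFP libraries had 1609.9, 1937 and 1836 (96 h), 1530.3, 1778 and 1677 (120 h) and 1716, 1539 and 1392 (144 h), and p53KO–emiRFP libraries 607, 689.8 and 672 (96 h), 827, 851 and 802 (120 h) and 942, 889.8 and 878 (144 h). The log2 fold change was −2.22 ± 0.24 at 0 h (edgeR adjusted p = 9.4e-05), −2.52 ± 0.13 at 72 h (adjusted p = 1.16e-09), −1.45 ± 0.09 at 96 h (adjusted p = 4.51e-08) and −0.78 ± 0.12 at 144 h (adjusted p = 4.54e-05). The difference itself varied with time (F test, adjusted p = 1.13e-11). Within p53KO–emiRFP cells Bbc3 rose between 72 and 96 h by 0.95 ± 0.17 (adjusted p = 2.84e-06), a step at which WT cells had 0.06 ± 0.09 (adjusted p = 0.573). This WT value averages 3 populations, whose means went from 1737 to 2185 normalized counts in WT–mCherry cells beside p53KO cells, but from 1731 to 1688 in WT–mCherry and 1941 to 1794 in WT–emiRFP cells of WT + WT gastruloids.

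Pmaip1 encodes Noxa, which neutralizes Mcl1. At 72 h the WT–emiRFP libraries had 3324, 3764 and 3882 normalized counts of it and the p53KO–emiRFP libraries 7412, 7442 and 7325. At 96 h these values were 1816, 1722 and 1616 against 4709, 4277 and 4156. The p53KO–emiRFP libraries were the higher ones at both times, with no overlap, and remained so later. At 120 h they had 1657, 1699 and 1586 against 967, 1002 and 1055, and at 144 h 1487, 1575 and 1670.1 against 829, 897 and 1019.8. The log2 fold change went from −0.33 ± 0.19 at 0 h (edgeR adjusted p = 0.399) over 0.16 ± 0.05 at 48 h (adjusted p = 0.0251) to 1.02 ± 0.07 at 72 h (adjusted p = 3.22e-08) and 1.35 ± 0.09 at 96 h (adjusted p = 5.35e-08), then 0.71 and 0.78 at 120 and 144 h. It varied with time (F test, adjusted p = 3.85e-13). The small 48 h difference lost its call without any 1 of the replicates, with adjusted p of 0.0798 to 0.141.

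Bmf, a BH3-only protein tied to the cytoskeleton in attached cells, was −0.24 ± 0.07 at 72 h (edgeR adjusted p = 0.0149), 0.41 ± 0.08 at 96 h (adjusted p = 0.00207) and 0.45 ± 0.07 at 120 h (adjusted p = 8.94e-05). At 144 h the p53KO–emiRFP libraries had 6638, 5984 and 5646 normalized counts and the WT–emiRFP libraries 2838, 2787 and 2753. All 3 p53KO–emiRFP libraries were above all WT–emiRFP libraries, at 1.12 ± 0.08 (adjusted p = 2.31e-08), and the difference varied with time (F test, adjusted p = 1.41e-15). The small difference of 72 h lost its call without any 1 of the replicates, with adjusted p of 0.0575 to 0.149.

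Bid links death receptors to mitochondria after cleavage by caspase-8. At 144 h the p53KO–emiRFP libraries had 1152, 1134 and 1137 normalized counts of Bid, below the 1909, 1905 and 1832 of WT–emiRFP cells. The groups did not overlap, and the log2 fold change was −0.72 ± 0.07 (edgeR adjusted p = 8.08e-07). A smaller deficit of −0.28 ± 0.04 at 48 h was also called (adjusted p = 0.000223), the differences at the other times were not, and the F test over times gave adjusted p = 1.86e-11.

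Bik, a BH3-only protein of the endoplasmic reticulum, had few counts. Its WT–emiRFP libraries had 107, 119 and 108 normalized counts at 120 h and 222, 192 and 179 at 144 h, against 74.6, 64.3 and 93.3 and 110.2, 112 and 120.3 in p53KO–emiRFP cells. The p53KO–emiRFP libraries were lower at both times without overlap, with log2 fold changes of −0.53 ± 0.19 (edgeR adjusted p = 0.0287) and −0.79 ± 0.17 (adjusted p = 0.000829). The difference varied with time (F test, adjusted p = 0.00573, but 0.0984 without replicate 1). The 120 h call was lost without replicate 1 (adjusted p = 0.158) or replicate 2 (adjusted p = 0.172), and with the replicate block Bik was also called at 48 h (−0.37, adjusted p = 0.04).

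Hrk, best known from neurons, was higher in p53KO–emiRFP cells at 72 h (0.45 ± 0.12, edgeR adjusted p = 0.0101) and 96 h (0.56 ± 0.13, adjusted p = 0.00558). Its libraries at 96 h had 221, 264 and 205 normalized counts against 162, 149.7 and 156 in WT–emiRFP cells, without overlap. Both calls were lost without replicate 1 (adjusted p = 0.0714 and 0.0713) or replicate 2 (adjusted p = 0.144 and 0.108). Bcl2l11, the gene of the activator Bim, was called at no time without the replicate block and at 96 h with it (−0.16, adjusted p = 0.00153), beside 38.6% of all genes. Its log2 fold changes spanned only −0.15 to 0.03. Bad, a BH3-only protein held in check by phosphorylation, spanned −0.13 to 0.19 and was not called.

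**Figure D2:**
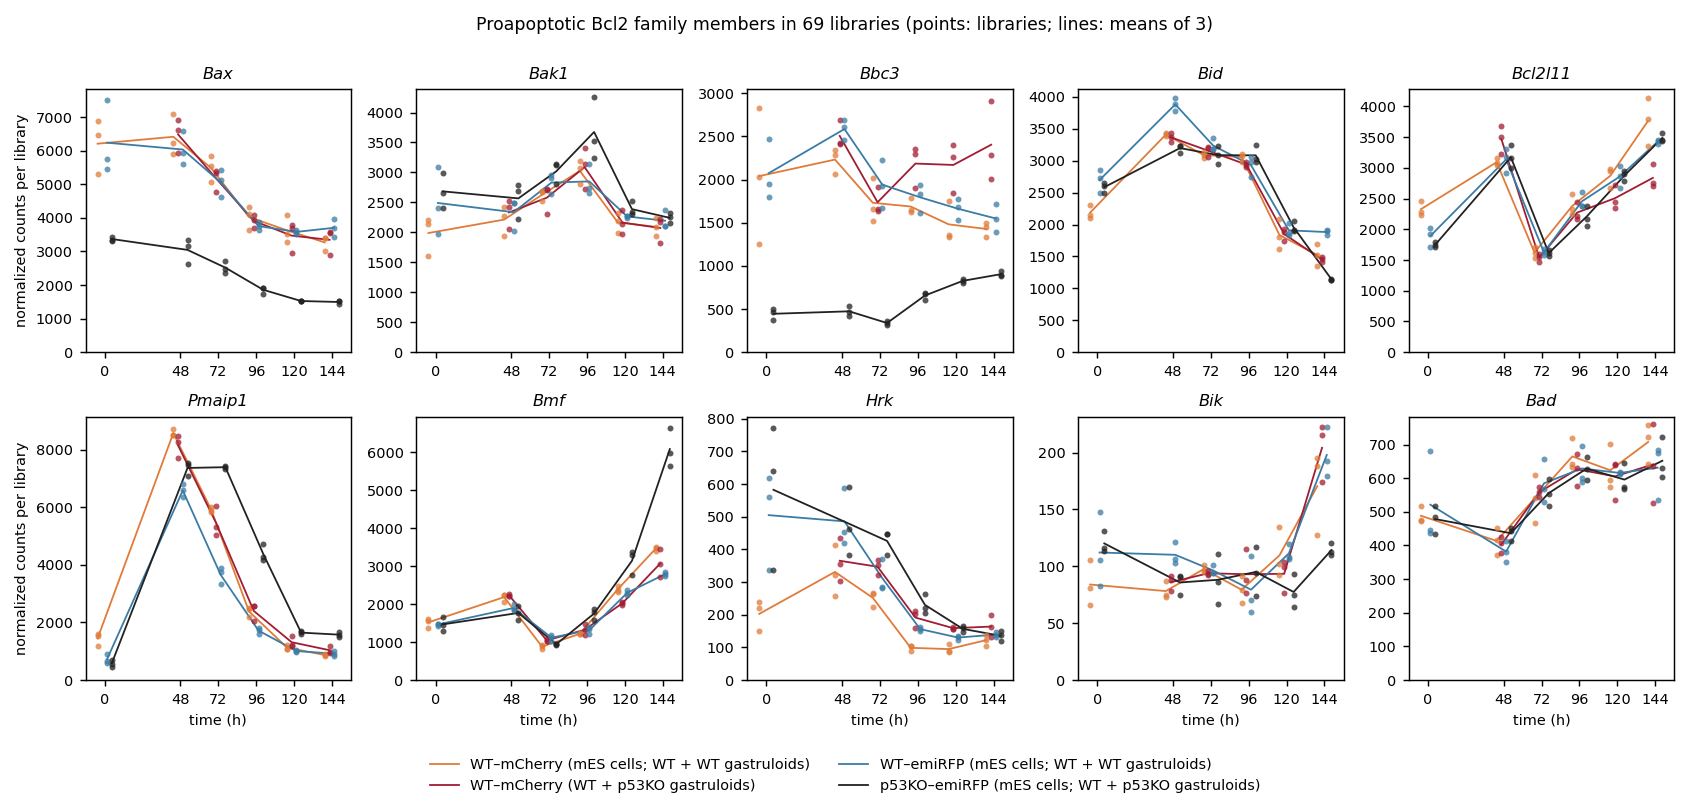
Normalized counts per library (vertical axes, from 0) of the 10 members against time in hours, with points for single libraries, lines for means of 3 and a colour for each population. The p53KO–emiRFP points of Bax and Bbc3 lie below all others at every time, and those of Pmaip1 at 72 and 96 h and of Bmf at 144 h lie above all others.

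The populations also differed in cell type markers. At 144 h all 3 naive markers and both pluripotency markers (Pou5f1, Nanog) were called lower in p53KO–emiRFP cells, as was 1 haematoendothelial marker, and both primitive streak markers, all 3 paraxial mesoderm markers and both neural markers higher. The summed pluripotency markers ranged from 5371 to 7928 normalized counts in p53KO–emiRFP and 34711 to 38508 in WT–emiRFP libraries, and the summed paraxial mesoderm markers (Tbx6, Msgn1, Meox1) from 13970.2 to 19672 and 2011 to 2926. Their part in the differences of Bmf, Bid and Bik at 144 h was not tested. At 72 h, when Bax and Bbc3 differed by −1.01 and −2.52, 2 naive markers and 1 haematoendothelial marker of the 16 were called lower, 1 endoderm marker higher and the other 12 not called. At 96 h, when Bak1, Pmaip1, Bmf and Hrk were called higher and Bax and Bbc3 lower, 3 naive, 1 pluripotency, 3 paraxial mesoderm and 1 haematoendothelial marker were lower and 2 primitive streak and 1 endoderm marker higher. At 120 h, when Pmaip1 and Bmf were called higher and Bax, Bbc3 and Bik lower, 3 naive, 2 pluripotency, 2 haematoendothelial and 1 endoderm marker were lower and 2 primitive streak, 2 paraxial mesoderm and 1 neural marker higher. The counts were 0 higher and 4 lower at 0 h, and 4 higher and 2 lower at 48 h. The part of the markers in these differences was not tested either.

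Promoters were searched for the p53 half-site consensus of 10 bases, by name and without a mismatch, in both strands of RefSeq windows of 300 bases (250 before to 50 after a transcription start, GRCm38.p6). Windows were found for 8 members, not for Pmaip1 and Bik, and 2 of their 14 windows held the motif, beside 8.36% of all 32851 windows. One was that of Bax, shown here as the 250 bases before the start, at chr7:45466899-45467148 on the − strand, with the half-site in capitals.
Bax promoter: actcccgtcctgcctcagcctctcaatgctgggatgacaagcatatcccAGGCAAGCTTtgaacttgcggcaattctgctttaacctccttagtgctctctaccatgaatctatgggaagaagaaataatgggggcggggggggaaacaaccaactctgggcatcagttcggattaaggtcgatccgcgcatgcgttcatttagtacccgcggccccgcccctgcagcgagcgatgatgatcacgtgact
The half-site began 201 bases before the start. The other lay 213 bases before 1 of the 3 starts of Bmf, at chr2:118544588-118544837 on the − strand.
Bmf promoter: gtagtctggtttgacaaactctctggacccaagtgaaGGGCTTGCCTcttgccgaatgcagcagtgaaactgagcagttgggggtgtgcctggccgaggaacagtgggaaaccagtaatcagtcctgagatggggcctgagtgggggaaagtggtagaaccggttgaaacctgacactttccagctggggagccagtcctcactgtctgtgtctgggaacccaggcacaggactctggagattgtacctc
Such a match is a string of letters, not a measured binding site, and windows without it can hold sites that differ by a base. Bax had less and Bmf at 144 h more RNA in p53KO–emiRFP cells.

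The second comparison was within the same WT + p53KO gastruloids, p53KO–emiRFP against WT–mCherry cells. It uses the same p53KO–emiRFP libraries as the first one and adds the difference between the founder clones. The WT–mCherry libraries also held some emiRFP RNA, estimated by the histone gene H2bc14 as described below. This share was 3.24% to 7.0% at 120 h and 2.33% to 17.4% at 144 h, and its part in these differences was not tested. Bax and Bbc3 were again lower in p53KO–emiRFP cells at all 5 times, and Pmaip1 and Bmf were higher at late times. Of the 10 members 4 were called at 48 h, all lower, beside 25.3% of all genes, 4 at 72 h beside 31.4% and 4 at 96 h beside 23.6%, each with 2 higher and 2 lower. At 120 h 5 were called (3 higher, 2 lower; all genes 39.5%) and at 144 h 7 (3 higher, 4 lower; all genes 64.2%).

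The WT–mCherry libraries of these gastruloids had 6918, 6621 and 5916 (48 h), 5349.6, 5406 and 4783 (72 h), 4087, 3943 and 3695 (96 h), 3685, 3776 and 2950.3 (120 h) and 3538, 3592 and 2907 (144 h) normalized counts of Bax, all above the p53KO–emiRFP libraries given before. The log2 fold change of Bax ranged from −1.04 at 72 h to −1.19 at 120 h. Their Bbc3 was 2411, 2418 and 2688 (48 h), 1633, 1919 and 1660.0 (72 h) and 2354, 2296 and 1907 (96 h), again above every p53KO–emiRFP library. At 120 and 144 h they had 2263, 2402 and 1844 and 2915, 2285 and 2012 normalized counts of Bbc3, and the difference was −1.39 ± 0.11 (edgeR adjusted p = 5.4e-07) and −1.41 ± 0.12 (adjusted p = 1.97e-07). At these times Bbc3 was −1.01 and −0.78 against WT–emiRFP cells, the reference of the first comparison.

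Pmaip1 was slightly lower in p53KO–emiRFP than in WT–mCherry cells at 48 h (−0.15 ± 0.05, edgeR adjusted p = 0.036), a call lost without replicate 1 (adjusted p = 0.406) or 3 (adjusted p = 0.092), and higher at 0.43 ± 0.07 at 72 h (adjusted p = 0.00018). At 96 h the WT–mCherry libraries had 2556, 2579 and 2065 normalized counts, below all p53KO–emiRFP libraries, and the difference was 0.87 ± 0.08 (adjusted p = 3.56e-06). At 120 h it was 0.33 ± 0.09 (adjusted p = 0.0102), a call lost without replicate 2 (adjusted p = 0.0804) or 3 (adjusted p = 0.0743). At 144 h they had 1184, 986 and 942, also below all p53KO–emiRFP libraries, with 0.60 ± 0.10 (adjusted p = 7.86e-05). For Bmf the WT–mCherry libraries had 2039, 1991 and 2055 normalized counts at 120 h and 3444, 2718 and 3068 at 144 h. The p53KO–emiRFP libraries were higher without overlap at both times, by 0.63 ± 0.07 (adjusted p = 8.15e-06) and 0.98 ± 0.08 (adjusted p = 1.18e-07).

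Bik at 144 h was 223, 215 and 174 normalized counts in WT–mCherry libraries, above all p53KO–emiRFP libraries, with a log2 fold change of −0.84 ± 0.17 (edgeR adjusted p = 0.000563). Smaller differences passed for Bid at 144 h (−0.35), Bmf at 48 h (−0.34) and 96 h (0.41), Bak1 at 72 h (0.23) and Bcl2l11 at 120 and 144 h (0.20 and 0.30). The calls of Bak1 at 72 h (adjusted p = 0.124 and 0.146) and Bcl2l11 at 120 h (adjusted p = 0.135 and 0.23) were lost without replicate 1 or 2, and that of Bcl2l11 at 144 h without replicate 1 (adjusted p = 0.0567). With the replicate number as a block, the fit also called Bak1 at 48 h (adjusted p = 0.00215), 96 h (adjusted p = 5.05e-05) and 120 h (adjusted p = 0.0182), Bcl2l11 at 48 h (adjusted p = 0.00381), and Hrk at 48 h (adjusted p = 2.68e-05), 72 h (adjusted p = 0.0394) and 96 h (adjusted p = 0.0429). Of these, all but Bcl2l11 were higher in p53KO–emiRFP cells. That fit called 43.6%, 41.5%, 39.5% and 53.8% of all genes at 48, 72, 96 and 120 h. Bad was called in neither fit. The markers of the 7 cell types differed here too: of the 16, those called were 3 each way (48 h and again 72 h), 3 higher with 9 lower (96 h), 5 higher with 8 lower (120 h) and 8 each way (144 h), with summed pluripotency markers of 28318 to 29089 normalized counts in WT–mCherry cells, and their part in these differences was not tested.

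**Figure D3:**
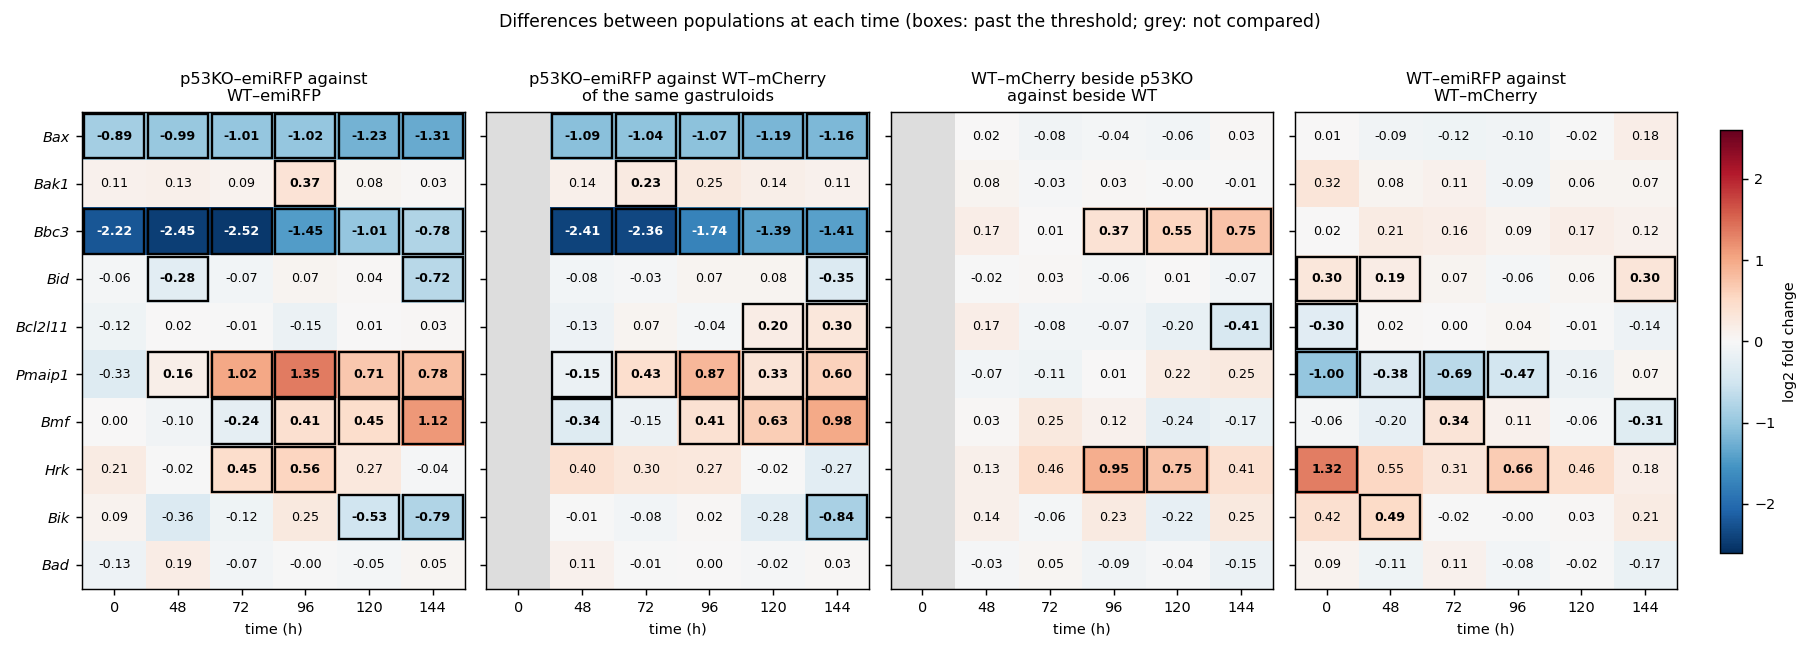
Heat maps of log2 fold changes of the 10 members (rows) at each time in hours (columns) for the 4 comparisons of populations, with boxes and bold type where the edgeR adjusted p was under 0.05 and grey where no comparison was made. Bax and Bbc3 are boxed and blue at all times in both comparisons with p53KO–emiRFP cells, and the third map shows boxes for Bbc3, Hrk and Bcl2l11 at 96 h or later only.

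The third comparison asked whether WT–mCherry cells differ by their neighbour: cells from WT + p53KO gastruloids, which the study calls losers, against the same clone from WT + WT gastruloids. Bbc3 was higher beside p53KO cells at 96, 120 and 144 h, Hrk at 96 and 120 h, and Bcl2l11 was lower at 144 h. Bax, Bak1, Pmaip1, Bid, Bmf, Bik and Bad did not pass the test at any time in this fit. Without the replicate block no member was called at 48 h or 72 h by edgeR, where 0.0735% and 0.559% of all genes were. At an unadjusted p under 0.05 these times had 2 members each (Bbc3 and Bcl2l11, then Bmf and Hrk), and DESeq2 called 0 and 1 (Hrk), beside 0.367% and 1.73% of its genes. With the block edgeR called 1 at each, Bcl2l11 at 48 h and Hrk at 72 h. At 96 h 2 members were called, both higher, beside 3.93% of all genes, at 120 h 2, both higher, beside 5.95%, and at 144 h 2, 1 in each direction, beside 25.5%.

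The Bbc3 libraries of WT–mCherry cells beside WT cells had 1782, 1652 and 1629 normalized counts at 96 h, and those beside p53KO cells 2354, 2296 and 1907. At 120 h the values were 1336, 1757 and 1352 against 2263, 2402 and 1844, and at 144 h 1454, 1494 and 1334 against 2915, 2285 and 2012. At each of the 3 times every library beside p53KO cells was above every library beside WT cells. The log2 fold change was 0.37 ± 0.09 at 96 h (edgeR adjusted p = 0.0315), 0.55 ± 0.11 at 120 h (adjusted p = 0.0107) and 0.75 ± 0.11 at 144 h (adjusted p = 0.000602). Without replicate 1 of all groups these were 0.36 (adjusted p = 0.36), 0.45 (adjusted p = 0.273) and 0.60 (adjusted p = 0.00834), and without replicate 2 the 96 h call was also lost (adjusted p = 0.251). Whether the difference varied over the 5 times gave adjusted p = 0.0527 without and 0.0193 with the replicate block, tests that called 11.6% and 18.3% of all genes. In the same libraries the p53 target Cdkn1a was higher by 0.42, 0.58 and 0.58 at 96, 120 and 144 h. Mdm2 was higher by 0.40, 0.24 and 0.49, and both genes were called at each of these times. Trp53 itself had −0.05, −0.23 and −0.20, called at 144 h only. The part of p53 in the difference of Bbc3 was not tested.

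Hrk had 103, 104 and 89.4 normalized counts beside WT cells and 210.3, 203 and 161 beside p53KO cells at 96 h. At 120 h it had 88.9, 111 and 84.8 against 156, 162 and 158. The libraries beside p53KO cells were higher without overlap at both times, by 0.95 ± 0.14 (edgeR adjusted p = 0.00437) and 0.75 ± 0.13 (adjusted p = 0.00364). The 96 h call was lost without replicate 1 (adjusted p = 0.36) or replicate 2 (adjusted p = 0.0716), and the 120 h call without replicate 1 (adjusted p = 0.139) or replicate 3 (adjusted p = 0.0711). With the replicate block Hrk was also called at 72 h (0.46, adjusted p = 0.0477) and 144 h (0.41, adjusted p = 0.0428), where it called 2.27% and 37.2% of all genes.

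Bcl2l11 at 144 h had 3801, 3355 and 4145 normalized counts beside WT cells and 2750.4, 2706 and 3056 beside p53KO cells. The latter were lower without overlap, at −0.41 ± 0.07 (edgeR adjusted p = 0.0013), and the difference varied with time (F test, adjusted p = 0.00035), as did that of Bmf (adjusted p = 0.00608), which went from 0.25 at 72 h to −0.24 at 120 h. Without replicate 2 these F tests gave adjusted p = 0.0512 and 0.126, and that of Bmf 0.227 without replicate 3. At 48 h the replicate block gave a call of Bcl2l11 in the other direction, 0.16 (adjusted p = 0.00519), beside 4.91% of all genes. It also gave calls for Pmaip1 (0.26, adjusted p = 0.0387) and Bmf (−0.17, adjusted p = 0.0292) at 144 h.

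Histone genes that mark the emiRFP clones had counts in the mCherry sorts as well. H2bc14 had 9940.5 ± 582 normalized counts in WT–emiRFP and 7.24 ± 1.01 in WT–mCherry mES cells, and its level above the latter, held fixed over time, served to estimate a share of emiRFP RNA per library. It ranged from 1.26% to 3.89% (96 h), 3.24% to 7.0% (120 h) and 2.33% to 17.4% (144 h) beside p53KO cells. The ranges beside WT cells were 0.311% to 1.19%, 1.09% to 1.82% and 0.102% to 1.95%, without overlap. Another such gene, H2bc7, gave up to 11.6% beside p53KO cells at 144 h and up to 1.58% beside WT cells, with overlap. H2bc21, a weaker one, gave 2.75% to 20.4% and 2.03% to 5.18%, and unlike H2bc14 and H2bc7 it was not called by neighbour at 96, 120 or 144 h (adjusted p = 0.227, 0.0658 and 0.182). The library with the highest share at 144 h by each of the 3 genes was also the one with most Bbc3. How far emiRFP RNA made up these counts was not tested otherwise. p53KO–emiRFP cells had less Bbc3 than WT–mCherry cells at each time. With the emiRFP RNA estimated by H2bc14 subtracted, the difference of Bbc3 was 0.40 (adjusted p = 0.0256), 0.60 (adjusted p = 0.0084) and 0.86 (adjusted p = 0.000408) at 96, 120 and 144 h, that of Hrk 0.95 and 0.76 at 96 and 120 h, and that of Bcl2l11 −0.45 at 144 h (adjusted p = 0.000563). Bmf was then also called lower, at −0.29 at 120 h (adjusted p = 0.0316) and −0.33 at 144 h (adjusted p = 0.00124).

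Cell type markers moved between the same libraries. At 144 h 2 of the 3 paraxial mesoderm markers and 1 of 2 primitive streak and 1 of 2 endoderm markers were called higher beside p53KO cells, and both neural markers and 1 of 2 haematoendothelial markers lower. The summed neural markers (Sox1, Pax6) ranged from 1465 to 2019 normalized counts beside p53KO and 2481 to 2889 beside WT cells, and the summed primitive streak markers (T, Mixl1) from 429 to 498 and 179 to 261. Summed paraxial mesoderm markers overlapped, at 2733 to 6013 and 4482 to 6082. At 120 h both primitive streak and 2 paraxial mesoderm markers were higher and 1 marker each of the naive, pluripotency, neural and haematoendothelial lists lower, and at 96 h 2 naive markers were lower and no other marker was called. The earlier times had 0 higher and 2 (48 h) or 3 (72 h) lower. Their part in the differences of Bbc3, Hrk and Bcl2l11 was not tested.

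**Figure D4:**
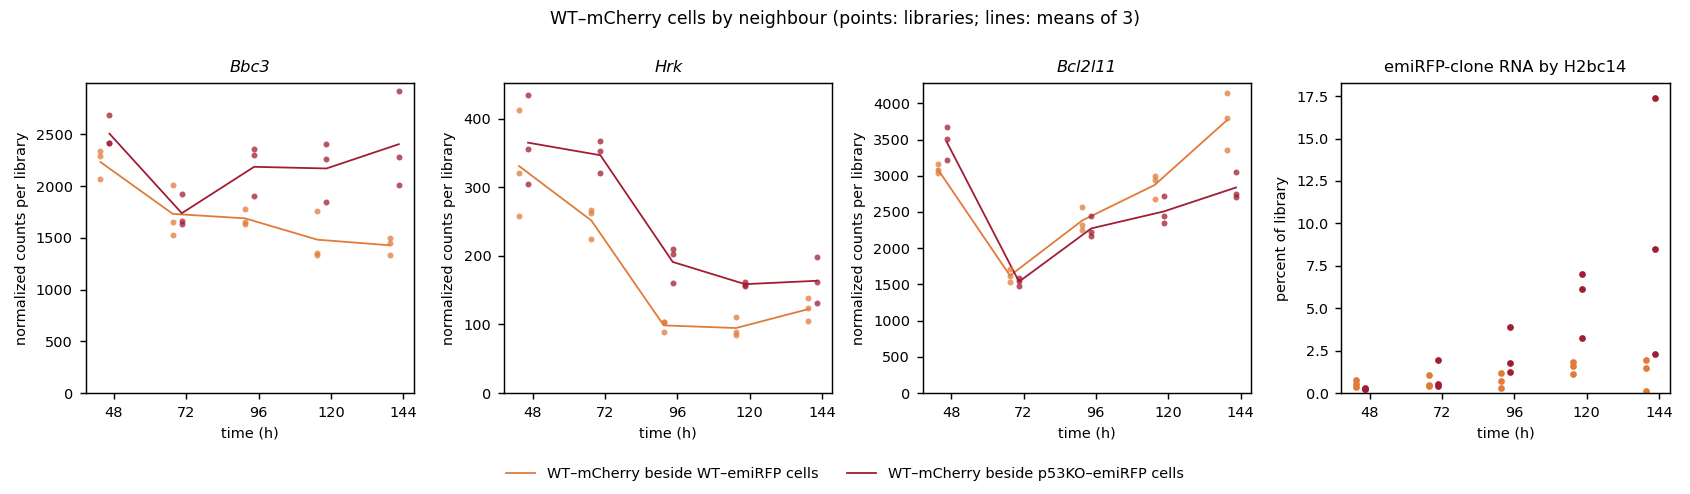
Normalized counts per library (vertical axes, from 0) of Bbc3, Hrk and Bcl2l11 in WT–mCherry cells against time in hours, and at right the share of RNA from emiRFP cells in percent of the library, with points for libraries, lines for means of 3 and colours for the neighbour. Bbc3 beside p53KO cells lies above Bbc3 beside WT cells from 96 h, and the emiRFP share reaches 17.4% in 1 library at 144 h.

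The 2 WT clones, as mES cells at 0 h and from WT + WT gastruloids afterwards, gave the difference to be had without any p53 mutation. Of the members 4 were called at 0 h (2 higher and 2 lower in WT–emiRFP) beside 11.1% of all genes, 3 at 48 h (2 higher, 1 lower) beside 8.89% and 2 at 72 h (1 each way) beside 7.64%. At 96 h 2 were called (1 each way) beside 2.15%, at 144 h 2 (1 each way) beside 23.8%, and at 120 h none by edgeR without the replicate block (with it Hrk, at adjusted p = 0.0249) beside 1.24%, where 1 (Hrk) had an unadjusted p under 0.05 and DESeq2 called 0, beside 4.64% of its genes. Bax and Bbc3 were called at no time without the replicate block, with log2 fold changes of −0.12 to 0.18 and 0.02 to 0.21. With the block Bax was called at 144 h (0.18, adjusted p = 0.0245) and Bbc3 at 48 h (0.21, adjusted p = 0.00181), beside 33.9% and 28.8% of all genes.

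Pmaip1 was lower in WT–emiRFP cells up to 96 h. The mES cell libraries had 604, 650.0 and 921 normalized counts in WT–emiRFP and 1615, 1185 and 1543 in WT–mCherry cells, and those at 72 h 3324, 3764 and 3882 and 6001, 5914 and 5835. The clones did not overlap at either time, and the log2 fold change was −1.0 ± 0.18 at 0 h (edgeR adjusted p = 0.00524), −0.38 ± 0.05 at 48 h (adjusted p = 0.000126), −0.69 ± 0.07 at 72 h (adjusted p = 2.95e-05) and −0.47 ± 0.09 at 96 h (adjusted p = 0.0104). The p53KO–emiRFP libraries of 72 h lay above those of both WT clones. Without replicate 2 the 0 h call was lost (adjusted p = 0.0687), and the 96 h call without replicate 1 (adjusted p = 0.233) or 2 (adjusted p = 0.185).

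Hrk went the other way. At 0 h WT–emiRFP libraries had 336, 560.2 and 619 and WT–mCherry libraries 151, 238 and 219 normalized counts, and at 96 h 162, 149.7 and 156 and 103, 104 and 89.4. WT–emiRFP cells were higher without overlap at both times, by 1.32 ± 0.30 (edgeR adjusted p = 0.0141) and 0.66 ± 0.14 (adjusted p = 0.024). Leaving out replicate 2 or 3 lost the 0 h call (adjusted p = 0.124 and 0.0796), and leaving out any replicate lost the 96 h call (adjusted p = 0.0728 to 0.352). With the replicate block Hrk was called at 48 h (0.55, adjusted p = 4.05e-07) and 120 h (0.46, adjusted p = 0.0249; 10.8% of all genes) too. The 2 WT–mCherry groups of 96 h had 98.7 ± 8.05 beside WT–emiRFP and 191 ± 26.8 beside p53KO–emiRFP cells, and WT–emiRFP cells 156 ± 6.06 (SD, n = 3 each). The other called members of this comparison differed by less than 0.5 on the log2 scale: Bid was higher at 0, 48 and 144 h, Bik higher at 48 h, Bcl2l11 lower at 0 h, and Bmf higher at 72 h and lower at 144 h. All of these calls were lost without at least 1 of the replicates (adjusted p = 0.0545 to 0.36). With the block Bmf was also called lower at 48 h (−0.20, adjusted p = 0.000402).

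The WT clones differed in cell type markers too. All 3 naive markers were called lower in WT–emiRFP cells at 48 and 72 h, and of the 16 markers 6 were lower at 48 h and 5 lower and 1 higher at 72 h. At 144 h 2 naive, 2 pluripotency and 1 haematoendothelial marker were higher, and both neural markers and 1 marker each of the primitive streak, paraxial mesoderm and haematoendothelial lists lower. The other times had 1 higher and 1 lower (0 h), 1 higher (96 h) and 3 higher and 2 lower (120 h). Their part in the differences of Pmaip1, Hrk and the other members was not tested.

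Over time the members followed separate courses. In WT cells, as the mean of the WT populations of a time, 7 members were called between 0 and 48 h (6 higher, 1 lower; 70.3% of all genes) and 9 between 48 and 72 h (2 higher, 7 lower; 66.9%). The later steps had 8 (4 each way; 58.6%), 7 (3 higher, 4 lower; 56.8%) and 5 (3 higher, 2 lower; 55.4%). In p53KO–emiRFP cells the 5 steps had 5 (4 higher, 1 lower; 59.5%), 5 (1 higher, 4 lower; 46.4%), 7 (4 higher, 3 lower; 44.5%), 7 (2 higher, 5 lower; 34.9%) and 4 (3 higher, 1 lower; 22.7%). Most genes of the WT cells were called at each step, so that these counts of members are set against a moving background.

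Pmaip1 had the widest range. The WT libraries had 604 to 1615 (median 1053) normalized counts at 0 h, 6347 to 8715 (median 8263) at 48 h, 3324 to 6029 (median 5333) at 72 h and 829 to 1184 (median 906) at 144 h. No library of 48 or 72 h overlapped with any of 0 or 144 h. The rise from 0 to 48 h was 2.91 ± 0.08 in WT (edgeR adjusted p = 3.09e-38) and 3.67 ± 0.12 in p53KO–emiRFP cells (adjusted p = 4.35e-33), whose libraries went from 469.9, 558 and 711 to 7071, 7477 and 7551. Between 48 and 72 h Pmaip1 fell in WT cells (−0.65 ± 0.06, adjusted p = 3.4e-14), while p53KO–emiRFP cells had 0.01 ± 0.10 (adjusted p = 0.978). The next steps were −1.20 and −0.90 in WT and −0.75 and −1.41 in p53KO–emiRFP cells, all called.

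Bcl2l11 and Bmf dipped at 72 h, after the step that spans the CHIR99021 treatment. WT libraries had 2924 to 3679 (median 3174) normalized counts of Bcl2l11 at 48 h, 1473 to 1708 (median 1594) at 72 h and 2706 to 4145 (median 3385) at 144 h. For Bmf the ranges were 1840.4 to 2272 (median 2215), 821 to 1186 (median 1030.3) and 2718 to 3506 (median 3068). The ranges of 72 h overlapped with neither of the other times for both genes. The fall between 48 and 72 h was −1.02 ± 0.04 for Bcl2l11 and −1.06 ± 0.05 for Bmf in WT cells (edgeR adjusted p = 7.45e-30 and 2.13e-27), and −0.98 ± 0.07 and −0.91 ± 0.08 in p53KO–emiRFP cells (adjusted p = 8.08e-18 and 5.59e-14). The p53KO–emiRFP libraries of Bcl2l11 had 2994, 3159.6 and 3367 (48 h) and 1569, 1657 and 1614 (72 h) normalized counts. Both genes rose at each later step in both. For Bmf the p53KO–emiRFP steps were 0.89, 0.84 and 0.95, with 961, 930.2 and 942 (72 h), 1883, 1588 and 1789.5 (96 h) and 3296, 2763 and 3373 (120 h) normalized counts, and the WT steps 0.35, 0.80 and 0.47.

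Other members declined. Bax was called lower in WT and p53KO–emiRFP cells at the 3 steps between 48 and 120 h, and its step from 72 to 96 h was −0.43 ± 0.06 and −0.44 ± 0.10. The calls of Bax between 96 and 120 h were lost without any 1 of the replicates in WT (adjusted p = 0.0612 to 0.193) and without replicate 1 or 2 in p53KO–emiRFP cells (adjusted p = 0.116 and 0.206), and that between 48 and 72 h in p53KO–emiRFP cells without replicate 2 (adjusted p = 0.332). Bid had 2745 to 3108 (median 2983) normalized counts in WT libraries at 96 h and 1618 to 2082 (median 1867) at 120 h, with no overlap, and fell between these times, at −0.67 ± 0.04 in WT and −0.66 ± 0.06 in p53KO–emiRFP cells. Between 120 and 144 h the step of Bid was −0.78 ± 0.06 in p53KO–emiRFP cells (edgeR adjusted p = 4.77e-15), from 1909, 2053 and 1906 to 1152, 1134 and 1137 normalized counts, and −0.21 ± 0.04 in WT cells. Hrk had 225 to 369.7 (median 284) normalized counts in WT libraries at 72 h and 89.4 to 210.3 (median 156) at 96 h, without overlap, and its fall between these times was −1.07 ± 0.12 in WT and −0.89 ± 0.20 in p53KO–emiRFP cells. Bak1 fell between 96 and 120 h, at −0.44 ± 0.07 in WT and −0.62 ± 0.12 in p53KO–emiRFP cells, whose libraries went from 3533, 4255 and 3238 to 2334, 2519 and 2311 normalized counts and where its rise between 48 and 72 h was called with the replicate block (0.24, adjusted p = 0.00877; 50.3% of all genes). Bik rose between 120 and 144 h, by 0.87 ± 0.11 in WT (adjusted p = 6.39e-10) and 0.56 ± 0.20 in p53KO–emiRFP cells (adjusted p = 0.0313), and Bad rose between 48 and 72 h, by 0.49 ± 0.07 and 0.35 ± 0.12. In p53KO–emiRFP cells the call of Bik was lost without any 1 of the replicates (adjusted p = 0.0546 to 0.174) and that of Bad without replicate 1 or 2 (adjusted p = 0.138 and 0.0733).

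**Figure D5:**
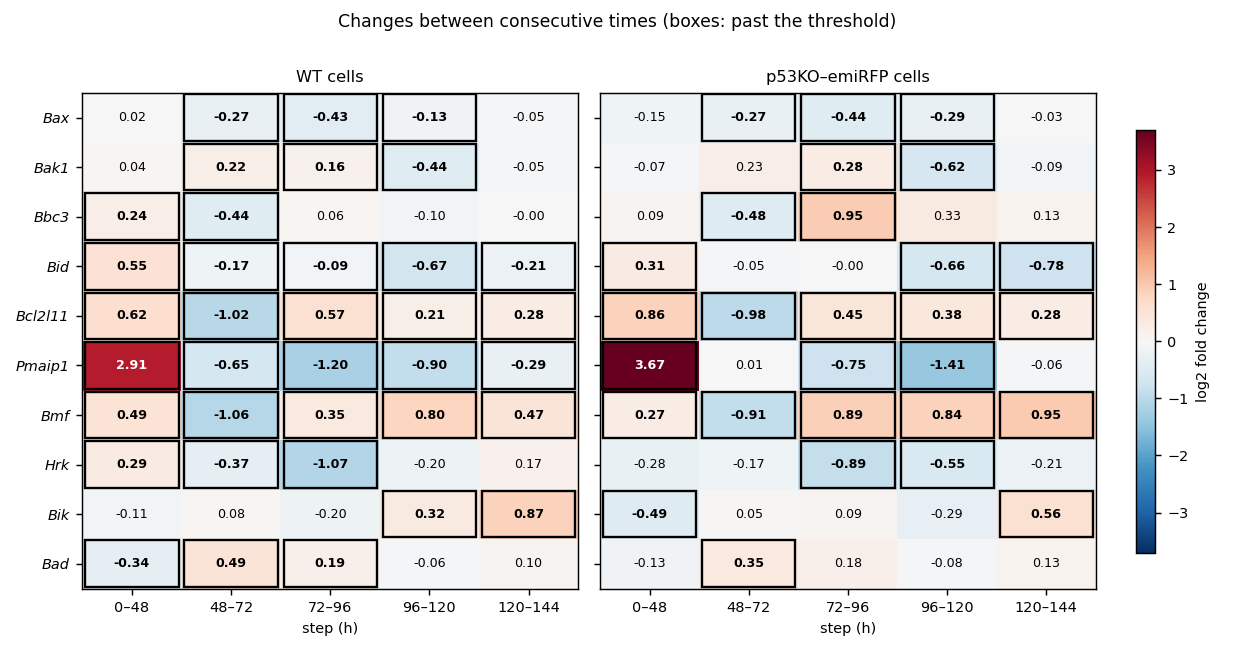
Heat maps of the log2 fold changes of the 10 members (rows) between consecutive times in hours (columns) in WT (left) and p53KO–emiRFP cells (right), with boxes where the edgeR adjusted p was under 0.05. The step from 0 to 48 h of Pmaip1 is the largest in both maps, and at 72 to 96 h Bbc3 is boxed at right only.

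The rest of the mitochondrial pathway was followed with 13 genes: the prosurvival members Bcl2, Bcl2l1, Bcl2l2, Mcl1 and Bcl2l10, the related Bok, the channel Vdac2, the apoptosome genes Apaf1, Cycs and Casp9, the inhibitor Xiap and its antagonists Diablo and Htra2. All were tested at 0 and 144 h, and 12, without Bcl2l10, at the other times. Between p53KO–emiRFP and WT–emiRFP cells 1 was called at 0 h (lower; all genes 6.13%), 4 at 48 h (22.0%) and 4 at 72 h (29.1%), each 2 higher and 2 lower, and 6 at 96 h (3 each way; 23.3%). At 120 h 7 were called (4 higher, 3 lower; 51.0%) and at 144 h 8 (3 higher, 5 lower; 65.3%), shares close to those of all genes. Apaf1, which forms the caspase-activating apoptosome with cytochrome c, was the only one called lower at all 6 times. It had 5228, 5407 and 6262 normalized counts in WT–emiRFP and 1570.2, 1547 and 1658 in p53KO–emiRFP libraries at 72 h, a difference of −1.82 ± 0.07 (edgeR adjusted p = 4.8e-11), and −0.46 ± 0.06 at 144 h. Mcl1, the prosurvival partner of Pmaip1, was lower at 120 h, at −0.95 ± 0.06 (adjusted p = 2.14e-08). Bcl2, at 830.4 ± 39.7 against 213 ± 30.4 normalized counts (SD, n = 3), was higher at 144 h by 1.96 ± 0.15 (adjusted p = 7.67e-08), and Bok by 0.98 ± 0.13 (adjusted p = 1.15e-05). Bcl2l10, a prosurvival gene best known from oocytes, was called lower there from raw counts of 0, 4 and 2 against 19, 10 and 19. Against WT–mCherry cells of the same gastruloids 4 pathway genes were called at 48 h beside 25.3% of all genes and 4 at 72 h beside 31.4%. At 96 h 6 were called beside 23.6%, at 120 h 7 beside 39.5% and at 144 h 10 beside 64.2%. Between the WT clones 1 was called at 0 h beside 11.1% of all genes, 3 at 48 h beside 8.89% and 2 at 72 h beside 7.64%. At 96 h 2 were called beside 2.15%, at 120 h 1 beside 1.24% and at 144 h 3 beside 23.8%.

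In WT–mCherry cells by neighbour the pathway genes called were Mcl1 at 72 h (−0.31 ± 0.07, edgeR adjusted p = 0.0493), Cycs, the cytochrome c gene, at 96 h (−0.18 ± 0.04, adjusted p = 0.0386), and at 144 h Bcl2 (−1.20 ± 0.15, adjusted p = 0.000195) and Cycs (−0.33 ± 0.06, adjusted p = 0.0016), all lower beside p53KO cells. Bcl2 had 267, 189 and 249 normalized counts there against 529, 452 and 645 beside WT cells, without overlap, and 248, 199.7 and 192 in WT–emiRFP cells. The call of Mcl1 was lost without any 1 of the replicates (adjusted p = 0.075 to 0.585) and that of Cycs at 96 h without replicate 1 or 2 (adjusted p = 0.423 and 0.254). By neighbour 0 of 12 pathway genes tested were called at 48 h beside 0.0735% of all genes, and 1 of 12 at 72 h beside 0.559%. At 96 h 1 of 12 was called beside 3.93%, at 120 h 0 of 12 beside 5.95% and at 144 h 2 of 13 beside 25.5%.

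Across the 23 condition means, the gene most like Bax by Pearson's r of log2(normalized count + 1) was Gtse1 (r = 0.976), which encodes a regulator of p53, of 14078 genes compared. It was Zfp750 (0.945) for Bbc3, Mta2 (0.971) for Pmaip1, Fbxo32 (0.951) for Bmf, Appl1 (0.922) for Bak1 and Dph1 (0.943) for Bid. For Bcl2l11, Hrk, Bik and Bad it was Fnbp1l (0.916), Gstt1 (0.943), Stat2 (0.917) and Aamdc (0.957). Among the members themselves Bcl2l11 and Bmf were most alike (r = 0.831), followed by Pmaip1 and Bid (0.706) and Bax and Bbc3 (0.660), while Hrk and Bad (−0.776) and Bid and Bmf (−0.766) ran against each other. These values describe 23 means that share clones, times and size factors.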

How the data were processed

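RNA of 69 libraries was measured as counts. Per the labels and the methods, the authors trimmed reads with Trim Galore (0.6.7), aligned them to GRCm38.p6 with STAR (2.7.11b) and a Gencode annotation, and deposited the raw counts of uniquely mapped reads per gene symbol. Libraries were poly(A) selected and stranded, and the strand column taken from STAR is not given in the sources used here. The members, gene lists and tests were chosen with earlier results of these data known.

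Counts were tested in R 4.3.3 with edgeR 4.0.16 (quasi-likelihood F test, size factors by medians of ratios over all 69 libraries, genes kept by filterByExpr, Benjamini-Hochberg adjustment over all genes tested, threshold 0.05). Comparisons of populations used the 12 libraries of a time (9 at 0 h), with 8 (or 6) residual degrees of freedom. Time steps and tests of whether a difference varied with time used all 69, with 46. The script was tested on simulated data. DESeq2 1.42.0, TMM scaling, no filter, other sets of libraries, each replicate left out in all groups and a replicate block were tried as alternatives. Intervals are standard errors, and values after ± beside means are SDs.

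The study collected its RNA in 3 experiments at separate times, and replicates with the same number deviated together: in 19 of 22 comparisons at a time the correlation was over 0.1 in all 3 pairs (14078 genes), the exceptions being 120 h for the neighbour comparison and 0 and 72 h for the WT clones. All members were named. Of the 13 pathway genes (others of the list are not reported here) the rule allowed up to 3 called ones with the largest differences per comparison; the text names some of these for the p53KO–emiRFP against WT–emiRFP comparison and that by neighbour, and only counts are given for the other comparisons of populations. Apaf1 at 144 h was named after its values were seen. In comparisons of populations, libraries were given singly for members called with a log2 fold change of at least 0.5 in size; for steps over time this was done for some. The lowest raw count of a member in any library was 39 for Bik, 90 for Hrk and 228 or more for the others, and relative counting error is largest for the low ones. No column was left out, and comparisons computed by the authors were not used.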

Additional observations from a re-analysis of the deposited data

Results flagged for a closer look

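For 5 of the 10 members the difference between p53KO–emiRFP and WT–emiRFP cells varied over the 6 times by edgeR's quasi-likelihood F test, beside 62.5% of all genes tested. Adjusted p was 1.13e-11 for Bbc3, 3.85e-13 for Pmaip1, 1.86e-11 for Bid, 1.41e-15 for Bmf and 0.00573 for Bik. For Bbc3 the deficit was smaller at late times, the difference of Pmaip1 went from −0.33 in mES cells, which was not called, to 1.35 at 96 h, and those of Bmf and Bid were largest in size at 144 h.

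For 2 of the 10 members the difference of WT–mCherry cells by neighbour varied over the 5 times, beside 11.6% of all genes. Adjusted p was 0.00035 for Bcl2l11 and 0.00608 for Bmf. The difference of Bcl2l11 was −0.41 at 144 h, and at 48 h it was called with the replicate block, at 0.16, and not without it. Bmf was called at no single time by edgeR as reported, but lower at 120 h with DESeq2, without the filter on low counts, with all libraries in one fit, with the replicate block and with emiRFP RNA subtracted.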

How the results depend on the processing

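Of the tests of single members, at a time, between times or over times, 2693 repeats under an alternative stayed on the same side of the threshold, 117 lost and 60 gained a call, and no called difference changed sign. The first comparison, p53KO–emiRFP against WT–emiRFP, had 28 calls in 60 tests of a member at a time, and 22 to 26 without 1 of the replicates. Those against WT–mCherry cells of the same gastruloids (24 of 50) ranged from 20 to 23. Between the WT clones there were 13 calls, but 4 to 7 without 1 of the replicates. By neighbour there were 6 calls (5 higher, 1 lower), and 2 to 6 without 1 of the replicates, with 2 without replicate 1. With DESeq2 or without the filter on low counts there were 9, with the 2 groups alone 4, and with emiRFP RNA subtracted 8. Of all genes tested over the 5 times, 7.51% were called by neighbour, 10.6% with DESeq2, 5.01% without the filter, 4.80% with the 2 groups alone, 8.88% with emiRFP RNA subtracted and 2.91% to 4.38% without 1 of the replicates. Steps over time had 36 calls in WT and 28 in p53KO–emiRFP cells, and 30 to 32 and 20 to 26 without 1 of the replicates. The difference of p53KO–emiRFP from WT–emiRFP cells varied with time for 5 members, and for 4 to 6 without 1 of the replicates. By neighbour 2 members varied with time, 5 without the filter on low counts and 0 to 2 without 1 of the replicates. The 0, without replicate 2 by edgeR, had 3 members at an unadjusted p under 0.05, and DESeq2 on all libraries called 3. Among these counts only those by neighbour at single times stand beside the share of all genes in the same fit. For the others, a change of the members cannot be told from a change of all genes. Without 1 of the replicates fewer libraries were fitted, and the cause of the other changes was not tested.

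With the replicate number as a block, the neighbour comparison had 13 calls (9 higher, 4 lower), and its share of all genes called rose as well, to 17.5%. In the pairing by number, the block added 26 calls in all and lost none of the others. At 120 h by neighbour it added Bcl2l11 (−0.20, adjusted p = 0.0079) and Bmf (−0.24, adjusted p = 0.00518), beside 20.3% of all genes, and between the WT clones at 0 h Bak1 (0.31, adjusted p = 0.0388), beside 17.3%, at times when the numbers were not shown to pair the libraries. Of 69 libraries 68 correlated best with their own number.

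Hrk and Bik had the fewest counts of the members, and no test at a lower depth was made.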
